A study of Mus musculus with 10 samples.

Results

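Cells move zinc with a pair of opposed protein families. Members of the ZIP family (Slc39a genes) carry zinc into the cytosol, from outside the cell or from organelles, and members of the ZnT family (Slc30a genes) carry it out of the cytosol. ZIP8 (Slc39a8) and ZIP14 (Slc39a14) also carry manganese and iron, and people who lack functional ZIP8 or ZIP14 have disturbed manganese balance. In the enamel organ, whose epithelium lays down tooth enamel, zinc is needed by secreted and cell surface enzymes such as the matrix protease MMP20 and tissue-nonspecific alkaline phosphatase. The 10 genes described here are 6 ZIP genes (Slc39a8, Slc39a14, Slc39a1, Slc39a6, Slc39a7 and Slc39a10) and 4 ZnT genes (Slc30a1, Slc30a5, Slc30a7 and Slc30a9). They were taken by name from the 17305 genes listed in the dataset, and all 10 were listed in both cell layers. The choice of members was made with earlier results of these data known. Slc39a8 was chosen by its normalized counts in KO and WT ameloblasts of these same libraries, so all its values are a description with no test. The other 9 were tested in fits over all genes.

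The libraries came from claudin-10 knockout (KO, genotype label KO Claudin 10) and wild-type (WT) mice, with 3 KO and 2 WT libraries from each of 2 layers of the hemi-mandible captured by laser from frozen sections. Ameloblasts secrete and mature the enamel matrix, and the stratum intermedium is the cell layer that lies against them. Library names began with KO1, KO3, KO9, WT10 or WT5 in both layers, and each prefix was taken as 1 mouse, which the labels do not state. If 2 prefixes came from the same mouse, p-values measure only the spread between libraries, which may be technical. The strain, age and sex of the mice, the deleted part of Cldn10 and whether the deletion was limited to some cells are not stated in the labels used here. Values are the deposited normalized counts, each layer normalized separately by the authors, and their depth is unknown.

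Cldn10, counted over the whole gene, had 280, 408 and 149 normalized counts in KO1, KO3 and KO9 ameloblasts, against 600 and 752 in WT10 and WT5 ameloblasts. In the stratum intermedium it had 1003, 387 and 465 in KO1, KO3 and KO9, against 7257 and 2365 in WT10 and WT5. KO libraries lay below WT libraries in both layers, as their labels say. Xist and Y-linked transcripts set KO1 and KO3 (Xist present) apart from KO9, WT10 and WT5 (Y-linked transcripts present), so KO9 was the KO mouse that shared the pattern of both WT mice. With sex as a covariate, the KO minus WT difference therefore sets KO9 alone against the WT libraries. Library names also end in a group number that the labels do not explain, 1 for KO3 and WT5, 2 for KO9 and WT10 and 3 for KO1 alone. A block for library group within a layer therefore gives the same KO minus WT difference as leaving KO1 out. Ameloblast markers (7 genes, among them Amelx, Ambn and Enam) made up 2.18% to 9.12% of KO and 2.66% to 4.67% of WT ameloblast libraries, and 0.123% to 0.787% of KO and 0.488% to 0.942% of WT stratum intermedium libraries. Klk4, the protease of maturing enamel, was listed at 0 in KO9 ameloblasts and at no more than 79 normalized counts in the other ameloblast libraries. Markers of odontoblasts and pulp took 2.34% to 6.02% of the total in the 10 libraries, so the captures were not pure.

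The coding sequences of the ZIP genes are shown for the feature that marks Slc39a8 and Slc39a14, the manganese-carrying members, within the family. ZIP proteins of the LIV-1 subfamily carry a conserved metal-binding stretch in a membrane helix. It opens with a histidine codon in most members and with a glutamate codon in Slc39a8 and Slc39a14. The sequences are from the GENCODE vM21 transcripts of GRCm38, on the coding strand and 5′ to 3′, with that first codon in capitals:
Slc39a8 (glutamate, exons 6 and 7, chr3:135884383-135884606, plus strand, with an intron inside the span): GAGgagtttcctcatgagttaggggac
Slc39a14 (glutamate, exons 8 and 9, chr14:70308830-70309779, minus strand, with an intron inside the span): GAGgaattccctcatgagctgggagac
Slc39a7 (histidine, exon 6, chr17:34029549-34029575, minus strand): CACgaagtgcctcatgaggttggggat
Slc39a10 (histidine, exons 8 and 9, chr1:46812172-46818084, minus strand, with an intron inside the span): CATgaactgccacatgaattaggtgat
The stretch in Slc39a6 also opens with a histidine codon. No match to the stretch was found in the coding sequence of Slc39a1, which belongs to another ZIP subfamily. The predicted proteins are 462 residues long for Slc39a8, 489 for Slc39a14, 476 for Slc39a7, 765 for Slc39a6, 833 for Slc39a10 and 324 for Slc39a1.

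Slc39a8 (ENSMUSG00000053897, chr3:135825279-135888572 in GRCm38) was higher in KO than in WT ameloblasts. It had 3409, 5289 and 2730 normalized counts in KO1, KO3 and KO9 ameloblasts, against 949 and 967 in WT10 and WT5 ameloblasts. Every KO library lay above both WT libraries, and the WT pair was close together while the KO libraries spread over a wide range. KO ameloblasts averaged 3809 ± 1326 (SD, n = 3) and WT ameloblasts 958 ± 12.7 (SD, n = 2), a ratio of 3.98 and a log2 difference of 1.93 (SE 0.31). Of all genes tested in ameloblasts, 9.09% also had every KO library above both WT libraries. Within library group 1 the log2 difference of KO3 from WT5 was 2.45, and within group 2 that of KO9 from WT10 was 1.52. With sex as a covariate, which sets KO9 alone against the WT libraries, the log2 difference was 1.51.

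In the stratum intermedium, Slc39a8 did not separate the genotypes. It had 12184, 5434 and 9618 normalized counts in KO1, KO3 and KO9, against 15548 and 4284 in WT10 and WT5. The WT pair held both the highest and the lowest library, so the groups overlapped. KO libraries averaged 9079 ± 3407 (SD, n = 3) and WT libraries 9916 ± 7965 (SD, n = 2). The log2 difference was 0.08 (SE 0.55). This value turned on the WT libraries: it was 1.01 without WT10 and -0.85 without WT5. Within library group 1 the difference was 0.34 and within group 2 it was -0.69.

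**Figure D1:**
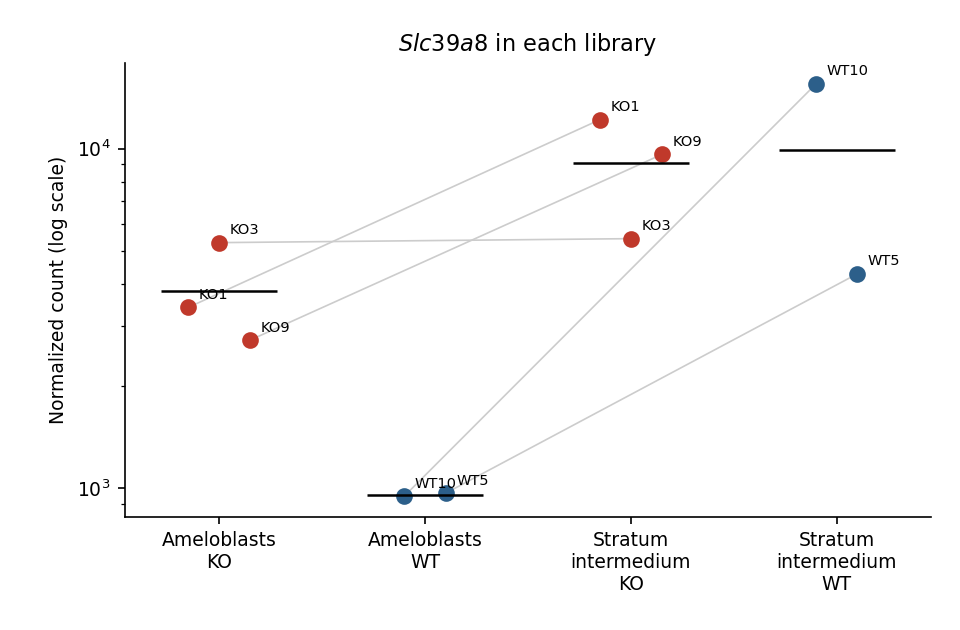
Slc39a8 in each of the 10 libraries, as the deposited normalized count on a log scale, with the mean of each group as a bar and grey lines joining libraries of the same name prefix. KO ameloblasts lie between 2730 and 5289, above WT ameloblasts at 949 and 967, while the KO and WT libraries of the stratum intermedium overlap.

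Slc39a8 was listed lower in ameloblasts than in the stratum intermedium of every mouse. The ameloblast minus stratum intermedium log2 value was -1.84, -0.04 and -1.82 in KO1, KO3 and KO9, against -4.03 and -2.15 in WT10 and WT5. The smallest gap was in KO3 and the widest in WT10. By mean normalized count the 4 groups stood in the order stratum intermedium WT, stratum intermedium KO, ameloblast KO, ameloblast WT. The first 2 overlapped. KO3 ameloblasts, at 5289, also lay above WT5 stratum intermedium, at 4284, while both WT ameloblast libraries lay below all 8 others. The tables were normalized separately, so this order is a description of listed values and was not tested. The KO minus WT difference was 1.86 larger on the log2 scale in ameloblasts than in the stratum intermedium (SE 1.11 over 5 mice).

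Most markers of the stratum intermedium also had higher means in KO than in WT ameloblast captures. The 7 markers together made up 0.172%, 0.213% and 0.128% of KO1, KO3 and KO9 ameloblast libraries, against 0.0779% and 0.143% of WT10 and WT5. KO3 had the highest share and also the highest Slc39a8, while WT5 had a larger share than KO9 but less Slc39a8. That order of WT5 and KO9 rested on Krt15, the marker that was not higher in KO ameloblasts (log2 difference -0.79, SE 2.63). Krt15 had 613, 6380 and 30.2 normalized counts in KO1, KO3 and KO9 ameloblasts, against 64.8 and 11238 in WT10 and WT5. Of the 7, 6 were higher in KO ameloblasts by mean log2 value (53% of all genes were), with a median log2 difference of 0.55. Dsc3, Krt17 and Jag1, 3 of the 7, had every KO library above both WT libraries (9.09% of all genes did). Jag1 was, however, listed lower in the stratum intermedium (1556, 1678 and 1128) than in ameloblasts (2395, 2869 and 3086) in KO1, KO3 and KO9. In WT10 and WT5 it was listed higher in the stratum intermedium. There, 2 of the 7 were higher in KO (51.9% of all genes), and Jag1 had every KO library below both WT libraries (log2 difference -0.62, SE 0.26, 7.44% of all genes). None of the 7 was listed at 0 in any library. The same markers made up 0.185% to 0.420% of KO and 0.158% to 0.387% of WT stratum intermedium libraries. Red blood cell markers, by contrast, were lower in KO ameloblasts, at 0.0814% to 0.144% against 0.244% and 1.28% in WT. Every KO library lay below both WT libraries for 5 of 5 of these genes (9.26% of all genes). Osteoclast markers made up 0.0995% to 0.443% of KO and 0.341% to 0.746% of WT ameloblast libraries, with 0 of 7 genes higher in KO (53% of all genes). Skeletal muscle markers made up 0.0449% to 0.206% of KO and 0.0114% to 0.239% of WT ameloblast libraries, with Tcap, Mb, Myh1 and Myh4 listed at 0 in at least 1 of them. By mean log2 value 7 of 7 muscle markers were higher in KO ameloblasts (53% of all genes were), with a median log2 difference of 1.10. The part of these other cells in the Slc39a8 difference was not tested, and in captures of many cells, fewer cells of a type and less RNA per cell cannot be told apart.

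Slc39a14 (ENSMUSG00000022094, chr14:70303469-70351425), the other manganese-carrying ZIP, had no such split in ameloblasts. It had 2560, 2253 and 3389 normalized counts in KO1, KO3 and KO9, against 3047 and 1375 in WT10 and WT5. WT10 lay within the KO range and WT5 below it (log2 difference 0.40, SE 0.38; unadjusted p = 0.327 and adjusted p = 0.989 over all genes in limma). Its stratum intermedium libraries had 1992, 1209 and 1453 in KO1, KO3 and KO9, against 1194 and 1803 in WT10 and WT5, and the groups overlapped (log2 difference 0.05, SE 0.30; unadjusted p = 0.874 in limma). Unlike Slc39a8, it was listed lower in ameloblasts in 1 of the 5 mice.

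Of the 9 members tested, 0 passed an adjusted p of 0.05 in either layer. In ameloblasts 3 had an unadjusted limma p under 0.05, all higher in KO, where 2.25% of all 16212 genes tested were called in that direction at that threshold, 0.82% in the other and 3.07% in either. Over all genes 0% passed the adjusted threshold, and the smallest adjusted p was 0.989. By mean log2 value 7 of the 9 were higher and 2 lower in KO ameloblasts, against 53% of all genes higher. Every KO library lay above both WT libraries for 4 of the 9 (9.09% of all genes) and below them for 0 of the 9 (9.26% of all genes). The median log2 difference of the 9 was 0.37, against 0.04 over all genes. As the members were chosen with earlier results of these data known, these shares cannot show an excess over all genes. Of the other ZIP and ZnT genes measured, 0 of 6 and 0 of 4 had an unadjusted limma p under 0.05 in ameloblasts. The 3 calls were Slc30a7, Slc39a10 and Slc30a9. With sex as a covariate, which sets KO9 alone against the WT libraries, their log2 differences were 0.94, 0.50 and 0.97. In that fit 0 of the 3 kept an unadjusted limma p under 0.05, as was also so without KO1 or without KO9.

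Slc30a7 (ENSMUSG00000054414, chr3:115938973-116007406) encodes ZnT7, which loads zinc into the early secretory pathway. It had 4594, 2595 and 3178 normalized counts in KO1, KO3 and KO9 ameloblasts, against 2242 and 1226 in WT10 and WT5. All 3 KO libraries lay above both WT libraries, with KO3 close to WT10. KO ameloblasts averaged 3456 ± 1028 (SD, n = 3) and WT ameloblasts 1734 ± 719 (SD, n = 2), a log2 difference of 1.02 (SE 0.36; unadjusted p = 0.0247 and adjusted p = 0.989 in limma). It was 1.08 within library group 1 and 0.50 within group 2, and 0.58 without WT5. In the stratum intermedium Slc30a7 had 1943, 1323 and 1535 in KO1, KO3 and KO9, against 1324 and 2389 in WT10 and WT5, and the groups overlapped (log2 difference -0.17, SE 0.31; unadjusted p = 0.596 in limma). Its KO minus WT difference was 1.19 larger on the log2 scale in ameloblasts than in the stratum intermedium (SE 0.57; unadjusted p = 0.0905 and adjusted p = 0.864 in limma), so the layers were not shown to differ.

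Slc39a10 (ENSMUSG00000025986, chr1:46807544-46892852) encodes ZIP10, a zinc importer of the cell surface. It had 1599, 1775 and 1567 normalized counts in KO1, KO3 and KO9 ameloblasts, against 1178 and 1037 in WT10 and WT5. The KO libraries lay close together and above both WT libraries. KO ameloblasts averaged 1647 ± 112 (SD, n = 3) and WT ameloblasts 1107 ± 99.9 (SD, n = 2), a log2 difference of 0.57 (SE 0.22; unadjusted p = 0.0365 and adjusted p = 0.989 in limma). Within library groups 1 and 2 it was 0.78 and 0.41, and with library group as a block its unadjusted p in limma no longer passed 0.05 (unadjusted p = 0.0924). Stratum intermedium libraries had 1783, 1978 and 2478 in KO1, KO3 and KO9, against 3606 and 1519 in WT10 and WT5. As with Slc39a8, WT10 was the highest and WT5 the lowest library there (log2 difference -0.18, SE 0.37; unadjusted p = 0.631 in limma). Slc39a10 was the one other member listed lower in ameloblasts in 5 of 5 mice.

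Slc30a9 (ENSMUSG00000029221, chr5:67306955-67358443) encodes ZnT9, which exports zinc from mitochondria. It had 1705, 1105 and 1767 normalized counts in KO1, KO3 and KO9 ameloblasts, against 1059 and 764 in WT10 and WT5. KO3 lay just above WT10, and the other KO libraries well above both WT libraries (log2 difference 0.73, SE 0.31; unadjusted p = 0.0492 and adjusted p = 0.989 in limma). Within library groups 1 and 2 the log2 difference was 0.53 and 0.74. With library group as a block, which takes KO1 out of the difference, the unadjusted call was lost (unadjusted p = 0.0756 in limma). Values in the stratum intermedium were 1408, 1014 and 1088 in KO1, KO3 and KO9, against 1010 and 848 in WT10 and WT5. KO libraries again lay above WT libraries, KO3 by a narrow margin (log2 difference 0.32, SE 0.25; unadjusted p = 0.231 in limma). Slc30a9 was the one tested member without overlap in both layers, whose libraries share the same name prefixes. Every KO library lay above both WT libraries for 9.09% of all genes in ameloblasts and 7.76% in the stratum intermedium. The share of genes above in both layers was not counted.

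The remaining ZIP genes overlapped between genotypes in both layers. Slc39a7 (ENSMUSG00000024327, chr17:34028269-34031682) encodes ZIP7, which releases zinc from the endoplasmic reticulum into the cytosol. It had 10779, 6980 and 5738 normalized counts in KO1, KO3 and KO9 ameloblasts, against 6684 and 5703 in WT10 and WT5, with KO1 alone well above the rest (log2 difference 0.29, SE 0.31; unadjusted p = 0.372 in limma). Slc39a6 (ENSMUSG00000024270, chr18:24579881-24603817) encodes ZIP6, a close relative and partner of ZIP10. It had 3709, 3719 and 5388 in KO1, KO3 and KO9 ameloblasts, against 5690 and 1851 in WT10 and WT5, so the WT pair enclosed the KO libraries (log2 difference 0.37, SE 0.47; unadjusted p = 0.451 in limma). Slc39a1 (ENSMUSG00000052310, chr3:90248172-90253612) encodes ZIP1, a cell surface zinc importer found in most tissues. It had 561, 598 and 1063 in KO1, KO3 and KO9 ameloblasts, against 707 and 957 in WT10 and WT5, with KO9 highest and the other KO libraries lowest (log2 difference -0.21, SE 0.36; unadjusted p = 0.572 in limma). The log2 differences in the stratum intermedium were 0.11 for Slc39a7 (SE 0.23), -0.17 for Slc39a6 (SE 0.39) and -0.22 for Slc39a1 (SE 0.26).

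Among the remaining ZnT genes, Slc30a5 was the steadiest member. Slc30a5 (ENSMUSG00000021629, chr13:100802648-100833427) encodes ZnT5, which pairs with ZnT6 to load zinc into the early secretory pathway. It had 1023, 1076 and 1043 normalized counts in KO1, KO3 and KO9 ameloblasts, against 1002 and 1021 in WT10 and WT5. KO libraries lay above WT libraries, but the highest was only 1.07 times the lowest (log2 difference 0.05, SE 0.22; unadjusted p = 0.829 in limma), and with quantile normalization the sign turned (-0.012). The stratum intermedium had 995, 1108 and 1058 in KO1, KO3 and KO9, against 815 and 1198 in WT10 and WT5, which enclosed them. Slc30a1 (ENSMUSG00000037434, chr1:191906767-191913247) encodes ZnT1, the zinc exporter of the cell surface, whose transcription is raised by zinc through MTF-1. It had 357, 429 and 314 in KO1, KO3 and KO9 ameloblasts, against 508 and 386 in WT10 and WT5 (log2 difference -0.28, SE 0.32; unadjusted p = 0.4 in limma). Stratum intermedium values were 464, 361 and 321 in KO1, KO3 and KO9, against 629 and 445 in WT10 and WT5 (log2 difference -0.49, SE 0.33; unadjusted p = 0.177 in limma). In both layers WT10 was the highest and KO9 the lowest Slc30a1 library, and KO and WT overlapped.

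In the stratum intermedium 0 of the 9 had an unadjusted limma p under 0.05, where 2.06% of all 16543 genes tested did (1.27% higher and 0.786% lower in KO) and 0% passed the adjusted threshold. By mean log2 value 4 of the 9 were higher and 5 lower in KO, against 51.9% of all genes higher. Every KO library lay above both WT libraries for 1 of the 9 (7.76% of all genes), Slc30a9, and below them for 0 of the 9 (7.44% of all genes). The median log2 difference was -0.17, against 0.02 over all genes. Of the 9, 0 differed between layers at an adjusted or unadjusted p of 0.05 in limma on the paired layer differences, where 4.8% of 15567 genes did at the unadjusted one and 0% at the adjusted one.

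**Figure D2:**
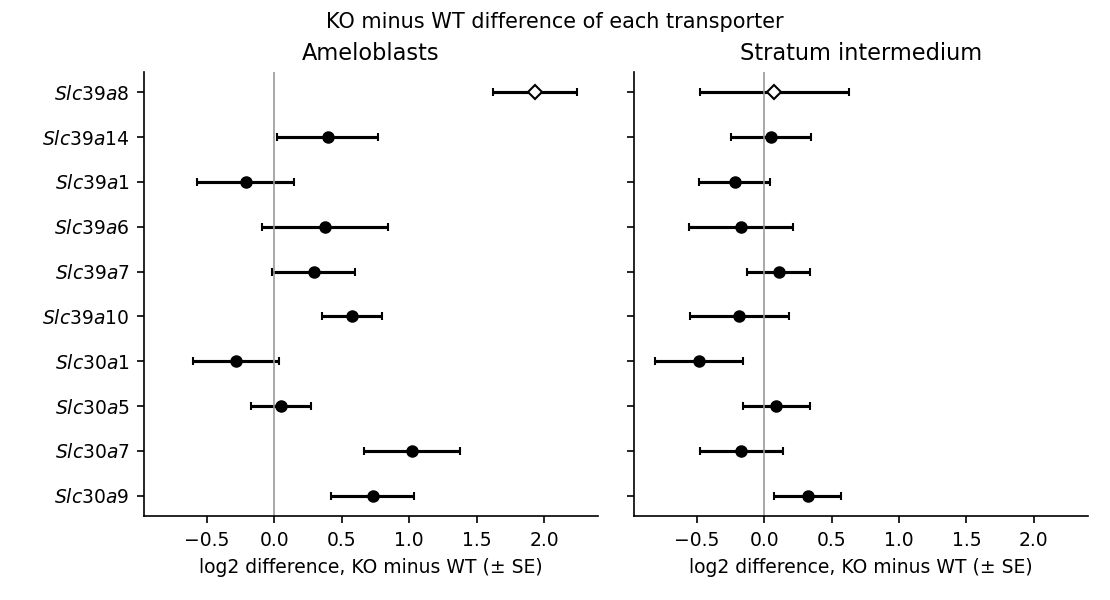
KO minus WT log2 difference of each transporter with its standard error from limma, in ameloblasts (left) and stratum intermedium (right). Slc39a8, drawn as an open diamond since it was chosen for this difference, stands at 1.93 in ameloblasts and 0.08 in the stratum intermedium, and the other 9 lie between -0.28 and 1.02 in ameloblasts and between -0.49 and 0.32 in the stratum intermedium.

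Per length, Slc39a7 was the most abundant of the 10 transporters in ameloblasts, and Slc30a1 and Slc30a9 the least. Levels were compared between genes as normalized counts per kb of annotated exon, within a layer. In ameloblasts Slc39a7 averaged 3031 per kb in KO and 2397 per kb in WT, ranked first in 5 of 5 libraries and did not overlap the next gene. Slc39a6 came second in 5 of 5 libraries, at 1049 per kb in KO and 926 per kb in WT. Slc39a8 had 497 per kb in KO and 125 per kb in WT ameloblasts and ranged from the third to the eighth place among the 10 across libraries. Slc39a1, Slc30a7, Slc39a14 and Slc39a10 followed, with means over all 5 libraries from 235 to 329 per kb and overlapping ranges. Slc30a5, Slc30a9 and Slc30a1 averaged 142, 103 and 76.1 per kb, against a median of 75.0 per kb over all genes of the ameloblast table.

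By mean level per kb, Slc39a8 had rank 3 of 10 in ameloblasts and rank 2 in the stratum intermedium, and Slc39a10 had rank 7 in ameloblasts and rank 4 in the stratum intermedium. In the stratum intermedium Slc39a8 averaged 1185 per kb in KO and 1294 per kb in WT, between Slc39a7 (1956 per kb in KO, 1866 per kb in WT) and Slc39a6 (785 per kb in KO, 937 per kb in WT). It ranked first of the 10 in 1 of 5 libraries, WT10, and by mean level per kb 6.31% of the genes of that table stood above it. The ranges of Slc39a7 and Slc39a8, and those of Slc39a8 and Slc39a6, overlapped. Slc39a10 and Slc39a1 followed Slc39a6, at 373 and 315 per kb over all 5 libraries, and the other 5 transporters lay between 84.7 and 153 per kb, against a median of 81.8 per kb over all genes.

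**Figure D3:**
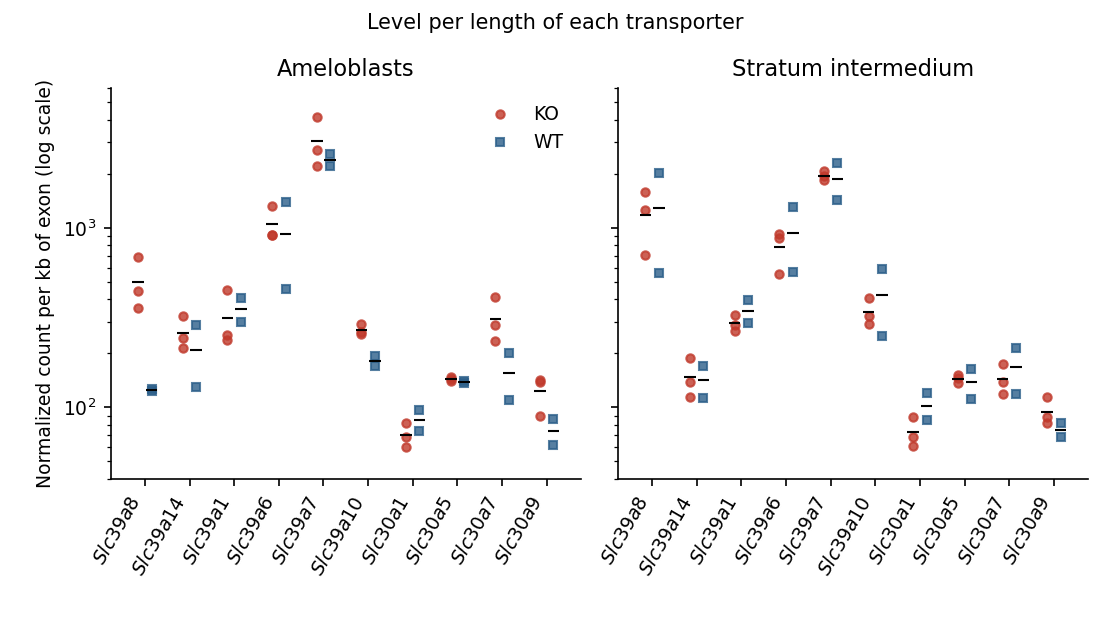
Normalized count per kb of exon (log scale) of the 10 transporters in each KO (circles) and WT (squares) library, with group means as bars, in ameloblasts (left) and stratum intermedium (right). Slc39a7 is highest in both panels by mean, and the KO points of Slc39a8 lie above its WT points in ameloblasts but not in the stratum intermedium.

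The members did not move as one set across libraries. The highest library was 1.07 times the lowest for Slc30a5 in ameloblasts and 5.57 times for Slc39a8 there, the extremes over the 10 members, and in the stratum intermedium this ratio ran from 1.47 for Slc30a5 to 3.63 for Slc39a8. WT5 ameloblasts held the lowest value of 6 of the 10 members. WT10 stratum intermedium held the highest value of 4 members (Slc39a8, Slc39a6, Slc39a10 and Slc30a1) and the lowest of 3 (Slc39a14, Slc39a7 and Slc30a5). Cldn10 was also highest in WT10 there, at 7257 normalized counts.

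**Figure D4:**
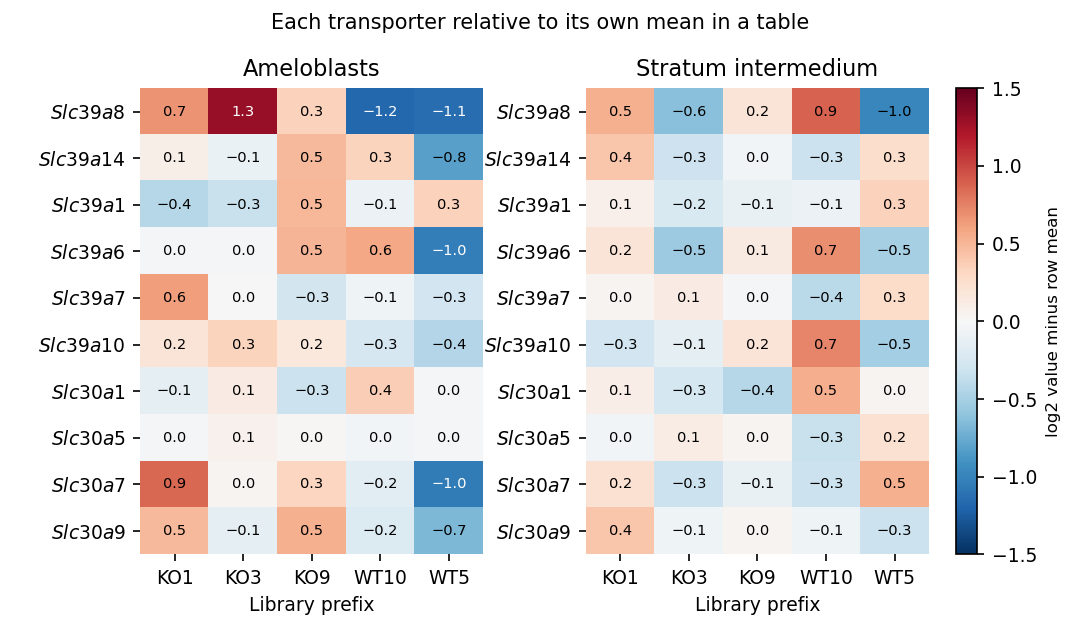
Log2 value of each transporter in each library minus its mean over the 5 libraries of the table, in ameloblasts (left) and stratum intermedium (right). Slc39a8 has the widest range in both panels, from 949 to 5289 normalized counts in ameloblasts and from 4284 to 15548 in the stratum intermedium.

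The genes most like Slc39a8 were found by the root mean square difference of centred log2 values over the 10 libraries, among 15566 genes. The 5 nearest were Enpp2 (0.20), Dsc3 (0.21), Cdh6 (0.25), Nectin4 (0.28) and Trp73 (0.32), against a median of 0.96 over all genes and 0.86 for a gene that did not vary. Enpp2 encodes autotaxin, which makes lysophosphatidic acid, Dsc3 a desmosomal cadherin, Cdh6 a classical cadherin, Nectin4 an adhesion receptor of adherens junctions, and Trp73 the transcription factor p73. As they were picked for this likeness, their values are descriptions. Enpp2 had 9829, 13167 and 8199 normalized counts in KO1, KO3 and KO9 ameloblasts, against 2132 and 2626 in WT10 and WT5. Enpp2 had 19608, 7973 and 13403 in KO1, KO3 and KO9 stratum intermedium, against 27670 and 9404 in WT10 and WT5. KO3 was thus its highest ameloblast library and its lowest stratum intermedium library. Dsc3, which is on the list of stratum intermedium markers, had 2572, 4616 and 2987 in KO1, KO3 and KO9 ameloblasts, against 1003 and 1143 in WT10 and WT5. Dsc3 had 5777, 3219 and 5199 in KO1, KO3 and KO9 stratum intermedium, against 8979 and 2973 in WT10 and WT5. Like Slc39a8, both were higher in every KO than in every WT ameloblast library and highest in WT10 of the stratum intermedium. Among the members, Slc39a10 came nearest (0.61, place 159 of 15566) and Slc39a1 was farthest (1.02).

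**Figure D5:**
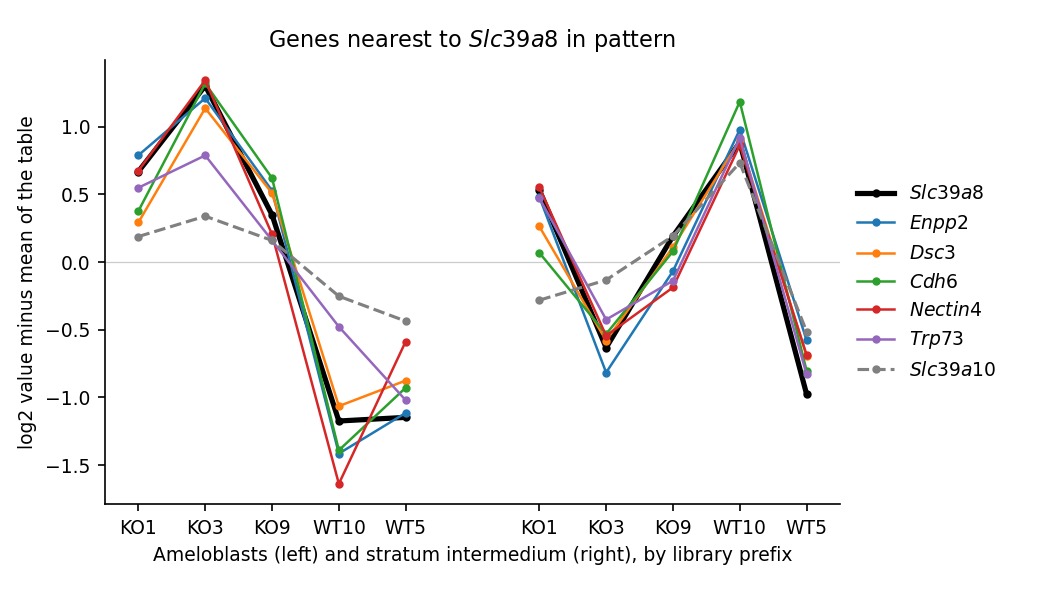
Log2 value minus the mean of the table for Slc39a8 (black), the 5 genes nearest to it and Slc39a10 (dashed), by library prefix in ameloblasts (left) and stratum intermedium (right). The 5 genes were chosen for this likeness: their KO libraries lie above their WT libraries in ameloblasts, and WT10 is their highest library in the stratum intermedium.

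The other ZIP genes measured had 0 of 6 with an unadjusted limma p under 0.05 in either layer. Of all genes, 3.07% were called at that threshold in ameloblasts and 2.06% in the stratum intermedium. By mean log2 value 5 of 6 were higher in KO ameloblasts (median log2 difference 0.55, 53% of all genes higher). In KO stratum intermedium 3 of 6 were higher (median -0.03, 51.9% of all genes higher). Slc39a9, which encodes the Golgi and cell surface transporter ZIP9, had 1750, 1528 and 1011 normalized counts in KO1, KO3 and KO9 ameloblasts, against 1028 and 610 in WT10 and WT5. KO9 lay just below WT10, so the groups overlapped (log2 difference 0.81, SE 0.35; unadjusted p = 0.0536 in limma). Slc39a11 had 5082, 2865 and 2322 in KO1, KO3 and KO9 ameloblasts, against 2946 and 1333 in WT10 and WT5 (log2 difference 0.71, SE 0.45; unadjusted p = 0.159 in limma). Slc39a4, the intestinal zinc importer mutated in acrodermatitis enteropathica, stood between 88.8 and 201 in KO and at 172 and 24.2 in WT10 and WT5 ameloblasts. Slc39a2 and Slc39a3 had log2 differences of 0.39 (SE 0.57) and -0.01 (SE 0.33) there. Slc39a5 and Slc39a12 were not analysed here.

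Of the other ZnT genes, 2 of 4 were higher in KO ameloblasts (median log2 difference -0.08, 53% of all genes higher) and 1 of 3 in KO stratum intermedium (median -0.35, 51.9% of all genes). In limma 0 of them had an unadjusted p under 0.05, as 3.07% of all genes did in ameloblasts and 2.06% in the stratum intermedium. Slc30a6, which encodes the ZnT6 partner of ZnT5, had 1933, 1461 and 1498 normalized counts in KO1, KO3 and KO9 ameloblasts, against 1382 and 956 in WT10 and WT5. Every KO library lay above both WT libraries, as for 9.09% of all genes (log2 difference 0.49, SE 0.27, unadjusted p = 0.113 in limma). Slc30a6 overlapped in the stratum intermedium (log2 difference 0.04, SE 0.22). Slc30a4, which encodes the vesicular transporter ZnT4, had log2 differences of 0.23 (SE 0.27) in ameloblasts and -0.35 (SE 0.29) in the stratum intermedium. Slc30a2 and Slc30a3 stood at no more than 134 normalized counts in any ameloblast library. Slc30a3 had 9.39, 2.55 and 11.6 in KO1, KO3 and KO9 ameloblasts, against 36.7 and 14.7 in WT10 and WT5. Its KO libraries all lay below both WT libraries, as for 9.26% of all genes (log2 difference -1.65, SE 1.21).

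Metallothioneins, small proteins that bind zinc, did not separate the genotypes. Zinc raises the transcription of Mt1 and Mt2 through MTF-1. Mt1 had 609, 2418 and 5100 normalized counts in KO1, KO3 and KO9 ameloblasts, against 2492 and 3705 in WT10 and WT5. Mt2 had 81.3, 414 and 916 in KO1, KO3 and KO9 ameloblasts, against 361 and 600 in WT10 and WT5. For both genes KO1 was the lowest and KO9 the highest ameloblast library, so the KO libraries enclosed the WT libraries. The log2 differences in ameloblasts were -0.63 for Mt1 (SE 0.80; unadjusted p = 0.455 in limma), -0.57 for Mt2 (SE 0.93; unadjusted p = 0.563 in limma) and -0.74 for Mt3 (SE 0.58; unadjusted p = 0.241 in limma). The list of metallothioneins and metal response genes also holds Mtf1 and Mtf2. It had 0 of 5 higher in KO ameloblasts (median -0.57, 53% of all genes higher) and 4 of 5 higher in KO stratum intermedium (median 0.27, 51.9% of all genes). In limma 0 had an unadjusted p under 0.05 in either layer (3.07% of all genes in ameloblasts and 2.06% in the stratum intermedium). Mtf2, named for binding metal response elements but known as a Polycomb partner, had log2 differences of -0.07 (SE 0.26) and -0.29 (SE 0.26).

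Of the genes listed for manganese, 8 of 9 were higher by mean log2 value in KO ameloblasts (median 0.26, 53% of all genes were higher). In KO stratum intermedium 4 of 9 were higher (median -0.04, 51.9% of all genes). The list is not limited to manganese transport. Among the 8 were the enzymes Sod2 (log2 difference 0.08, SE 0.27) and Glul (0.13, SE 0.37) and the iron exporter Slc40a1 (0.65, SE 0.77). In ameloblasts 1 of 9 had an unadjusted p under 0.05 (3.07% of all genes, 2.25% higher in KO): Atp13a2, a lysosomal polyamine transporter whose loss makes cells sensitive to manganese. It had 919, 629 and 691 normalized counts in KO1, KO3 and KO9 ameloblasts, against 516 and 372 in WT10 and WT5 (log2 difference 0.75, SE 0.31; unadjusted p = 0.046 and adjusted p = 0.989 in limma). Atp13a2 had 553, 300 and 277 in KO1, KO3 and KO9 stratum intermedium, against 624 and 380 in WT10 and WT5, and the groups overlapped. Tmem165, a Golgi protein needed for manganese supply to glycosyltransferases, had 2643, 2456 and 2228 in KO1, KO3 and KO9 ameloblasts, against 2065 and 1998 in WT10 and WT5. KO libraries lay above WT libraries within a narrow range (log2 difference 0.26, SE 0.21; unadjusted p = 0.253 in limma). Atp2c1, the Golgi calcium and manganese pump, had log2 differences of 0.26 (SE 0.28) in ameloblasts and -0.30 (SE 0.31) in the stratum intermedium, and Atp13a1 of 0.53 (SE 0.42) and 0.67 (SE 0.48).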

How the data were processed

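RNA-seq libraries of laser-captured layers were made with a stranded polyA kit, per the labels' protocols. The authors deposited 1 table per layer of normalized counts per gene, handled here as signal values, named as DESeq2 output. Per the submitters' processing notes the build was GRCm38 and the tools included STAR 2.5.2b, featureCounts and DESeq. The table names give Ensembl release 101 and say that outliers were left out. The strand setting of the counting is not stated in the labels. Whole reads could not be recovered, so the depth is unknown and no count test was run. Library sums ran from 21006977 to 26856177. Every listed gene reached 10 in at least 3 libraries, so values in the 3 KO libraries could suffice for listing, while those in the 2 WT libraries could not. Columns were matched by library name, and 0 were left unused.

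Differences are KO minus WT from limma's two-sided test with a trend (limma 3.58.1, R 4.3.3), fitted within a table to log2(normalized count + 1) of genes with a mean of at least 10, with Benjamini-Hochberg adjustment at 0.05. Differences between layers were fitted to each prefix's log2 value in ameloblasts minus that in the stratum intermedium. The fit was tested on simulated data. Positions, exon lengths and coding sequences are from GENCODE vM21 (GRCm38), which held 17294 of 17305 gene identifiers and all 10 members. Exons of Slc30a1, Slc30a7 and Slc39a7 overlap those of other annotated genes, so their counts are uncertain to that extent. The members and lists were chosen with earlier results of these data known. All members, Cldn10, the 3 genes of each other list with the smallest p in a layer and the 5 genes nearest to Slc39a8 in pattern were to be named, and the text adds marker genes. Alternatives were a pseudocount of 8, a mean minimum of 50 or none, sex as a covariate, a block for replicate number or for library group, quantile normalization, and each library left out in turn. Figures used matplotlib 3.10.9 in Python 3.11.15.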

Additional observations from a re-analysis of the deposited data

How the results depend on the processing

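With 3 KO and 2 WT libraries and unknown depth, 0 members passed the adjusted threshold under any alternative run, and leaving out 1 ameloblast library called 0 to 1 of all genes. The count of members at an unadjusted p under 0.05 in ameloblasts, 3 as reported, was 1 with library group as a block, 0 with sex as a covariate and 0 to 5 with 1 library left out (5 without WT10, 0 without KO1, KO9 or WT5). It was 0 to 1 in the stratum intermedium and 0 to 1 between layers. Slc39a8 in ameloblasts was 1.51 with sex as a covariate and 1.67 to 2.15 with 1 library left out, and in the stratum intermedium, where it was 0.08 as reported, -0.85 to 1.01, with -0.17 under library group as a block and -0.0043 under the replicate block. Deviations of KO and WT libraries with the same replicate number correlated at 0.0862 and -0.116 in ameloblasts and at -0.186 and -0.133 in the stratum intermedium. For library group the correlations were 0.273 and 0.116 in ameloblasts and 0.186 and 0.00593 in the stratum intermedium, over 2 pairs each. The 2 WT libraries deviate from their mean in opposite directions, so some of these values mirror each other. They cannot show whether either number marks a pairing. With the replicate block 2 members had an unadjusted p under 0.05 in ameloblasts and 0 in the stratum intermedium, and Slc39a8 differed by 1.67 in ameloblasts. Among the 9 tested members, signs turned with sex as a covariate for Slc39a1 (0.37) and Slc39a7 (-0.11) in ameloblasts, for Slc39a14 (-0.015), Slc39a6 (0.035) and Slc39a10 (0.082) in the stratum intermedium and for Slc39a7 between layers (-0.14). They turned with quantile normalization for Slc30a5 in ameloblasts (-0.012) and Slc39a1 between layers (-0.042), and with library group as a block for Slc39a14 in the stratum intermedium (-0.15). With 1 library left out, values ran in ameloblasts from -0.18 to 0.97 for Slc39a14, -0.50 to 0.0047 for Slc39a1 and -0.44 to 1.18 for Slc39a6. In the stratum intermedium they ran from -0.25 to 0.35 for Slc39a14, -0.77 to 0.43 for Slc39a6, -0.24 to 0.45 for Slc39a7, -0.81 to 0.44 for Slc39a10, -0.19 to 0.37 for Slc30a5 and -0.60 to 0.25 for Slc30a7. Between layers they ran from -0.52 to 1.22 for Slc39a14, -0.30 to 0.25 for Slc39a1, -0.27 to 0.64 for Slc39a7 and -0.31 to 0.22 for Slc30a5. The cause of these changes was not tested. Of 135 values of these 9 with 1 library left out 16 turned sign, and of 171 under the other alternatives 9 did. These counts are not separate checks. Within a layer, the library group block gives the same difference as leaving out KO1. The replicate block gives the same difference as leaving out KO replicate 3.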

Other observations

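Of 13 zinc-dependent enzymes, 9 were higher by mean log2 value in KO ameloblasts (median log2 difference 0.49, 53% of all genes were higher). In KO stratum intermedium 7 of the 13 were higher (median 0.13, 51.9% of all genes), and 0 passed the adjusted threshold in either layer. The list was drawn up for the secretory pathway, but it includes the cytosolic Car2. Enpp2, which is among the 13, was higher in KO ameloblasts (log2 difference 2.11, SE 0.27). As Enpp2 was picked above for its likeness to Slc39a8, its value is a description and is not counted as a call. Apart from Enpp2, the 1 gene with an unadjusted limma p under 0.05 in ameloblasts was Mmp9, lower in KO (0.82% of all genes were called in that direction). Mmp9, a gelatinase that is also on the list of osteoclast markers, had 4509, 11497 and 16900 normalized counts in KO1, KO3 and KO9 ameloblasts, against 18942 and 35592 in WT10 and WT5. All KO libraries lay below both WT libraries, KO9 by a narrow margin (log2 difference -1.44, SE 0.57; unadjusted p = 0.0391 and adjusted p = 0.989 in limma). Car9, a carbonic anhydrase of the cell surface, had 35.0, 54.6 and 50.5 in KO1, KO3 and KO9 ameloblasts, against a listed 0 and 24.7 in WT10 and WT5. Mmp2 had 4952, 5355 and 6714 in KO1, KO3 and KO9 ameloblasts, enclosed by 4160 and 8407 in WT10 and WT5. Car2, a cytosolic carbonic anhydrase, overlapped in both layers (log2 differences -0.20 and -0.29, SE 0.39 and 0.21). Enpp1, which makes pyrophosphate, had log2 differences of 0.29 (SE 0.24) in ameloblasts and 0.73 (SE 0.61) in the stratum intermedium. Alpl, the alkaline phosphatase that breaks pyrophosphate down, had 14345, 15829 and 11710 in KO1, KO3 and KO9 ameloblasts, against 6714 and 12402 in WT10 and WT5, and 31622, 16866 and 18039 in KO1, KO3 and KO9 stratum intermedium, against 26092 and 20948 in WT10 and WT5.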
